A study of Mus musculus with 12 samples.

Results

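The sodium pump genes Atp1b1, Fxyd2, Fxyd4 and Fxyd5 and the sodium/proton exchanger genes Slc9a3 and Slc9a8 were followed through mouse kidneys given cisplatin, pregnenolone carbonitrile (PCN), both or neither. The 6 genes were taken by symbol from the 52636 genes of the deposited expression table, a rule that uses no measured value, although the genes were picked for description with earlier results of these data known. Every library came from the kidney of a male wild-type C57BL/6 mouse 8 weeks old, and there were 12 libraries in 4 groups of 3. The cisplatin+PCN group received PCN, a steroid agonist of the rodent pregnane X receptor (PXR), by gavage at 40 mg/kg each day, with 1 intraperitoneal injection of cisplatin at 20 mg/kg. The cisplatin group had that injection with corn oil as the gavage. The PCN group had PCN with saline in place of cisplatin, and the control group had corn oil and saline. Gavage ran for 4 days before the injection and 3 days after it, and kidneys were taken 4 days after cisplatin. The treatment text places the cisplatin group once among the PCN-pretreated animals and once among those given oil, so groups were assigned from the library titles. Whole kidney was sequenced, so fewer cells of a type and less RNA per cell cannot be told apart in any value below. Nothing in the labels says that the libraries came from separate animals, and p-values therefore measure the spread between libraries, which may be technical in part.

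The sodium pump (Na,K-ATPase) sits in the basolateral membrane of tubule cells, pumps sodium out of the cell and potassium in, and keeps up the sodium gradient that drives most reabsorption in the nephron. It is built from a catalytic alpha subunit and a beta subunit, and a small membrane protein of the FXYD family binds to the pair and tunes its affinity for ions. On the luminal side, proton exchangers of the SLC9 family let sodium in and push protons out, which reclaims sodium and bicarbonate, above all in the proximal tubule. The pump itself is densest in the thick ascending limb and the distal convoluted tubule. Cisplatin is a platinum drug known to injure the proximal tubule.

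Fxyd2, Fxyd4 and Fxyd5 encode FXYD proteins, named after a shared motif of phenylalanine, any residue, tyrosine and aspartate. The coding stretch around that motif is shown because it is the feature the family shares. It was read from GENCODE M21 transcripts on GRCm38, with the 4 motif codons in capitals, and each stretch is 60 bases long and crosses an intron. The spans are chr9:45408111-45408325 on the plus strand for Fxyd2, chr6:117934475-117935164 on the minus strand for Fxyd4 and chr7:31035258-31036439 on the minus strand for Fxyd5.
Fxyd2: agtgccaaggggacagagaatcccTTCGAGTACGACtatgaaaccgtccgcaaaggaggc
Fxyd4: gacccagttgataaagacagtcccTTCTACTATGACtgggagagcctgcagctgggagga
Fxyd5: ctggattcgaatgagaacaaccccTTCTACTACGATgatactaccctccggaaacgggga
Fxyd2 matched Fxyd4 at 32 of 60 bases and Fxyd5 at 32 of 60, and Fxyd4 matched Fxyd5 at 29 of 60. Within the 12 bases of the motif, the matches were 9, 9 and 10.

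The promoters of the exchanger pair are shown because both transcripts were lower in the cisplatin group, by very different amounts. Each is the 150 bases before the RefSeq start site (GRCm38.p6), with every GGGCGG (the Sp1 motif, either strand) in capitals. Slc9a3 is chr13:74121263-74121412 and Slc9a8 is chr2:167421560-167421709, both on the plus strand.
Slc9a3: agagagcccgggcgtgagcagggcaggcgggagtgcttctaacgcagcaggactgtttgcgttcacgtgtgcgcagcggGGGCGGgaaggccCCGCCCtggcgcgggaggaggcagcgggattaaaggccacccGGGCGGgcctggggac
Slc9a8: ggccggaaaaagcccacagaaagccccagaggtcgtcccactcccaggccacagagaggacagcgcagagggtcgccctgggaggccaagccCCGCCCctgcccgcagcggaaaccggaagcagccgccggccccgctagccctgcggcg
The Slc9a3 matches began at -71, -58 and -16, with -1 the base before the start site. The Slc9a8 match shown began at -58, and another lay upstream at -221. Within 250 bases before to 50 after the start, 35.9% of 27025 promoters held GGGCGG. The other motifs searched on both strands, with no match in either window, were the TATA box TATAAA (held by 14.2% of promoters), the CCAAT box CCAAT (37.9%), the AP-1 motif TGANTCA (7.93%), the cyclic AMP response element TGACGTCA (1.88%) and the HNF1 half-site GTTAAT (7.20%). The Atp1b1 window held GGGCGG at 2 places and CCAAT at 2 places.

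The libraries held between 18914607 and 26530485 reads assigned to genes. Kidney markers were present in all 12, among them Umod of the thick ascending limb (683 to 1501 FPKM), Aqp2 of the collecting duct (219 to 542 FPKM) and Lrp2 of the proximal tubule (11.6 to 133 FPKM). Principal component 1 carried 80.2% of the variance, and the cisplatin+PCN libraries lay at 21.9, 40.7 and 29.3 on it, the cisplatin libraries between 51.2 and 62.6, and the PCN and control libraries between -44.9 and -42.1. Mitochondrially encoded genes took 6.34 to 7.81% of reads in cisplatin+PCN, 6.12 to 7.04% in cisplatin, 9.52 to 10.03% in PCN and 8.78 to 9.72% in control libraries. The summed level of the 3 erythroid markers was 0.198 to 0.520 FPKM in cisplatin+PCN and 0.411 to 5.95 FPKM in cisplatin libraries, against 287 to 468 FPKM in PCN and 273 to 960 FPKM in control libraries. The part of these differences in the results below was not tested.

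All 6 genes passed the expression minimum of 1 FPKM (fragments per kilobase of exon, scaled between libraries) in at least 3 libraries. They did so within the control group as well. Atp1b1 (ENSMUSG00000026576, chromosome 1, 164437109 to 164458355) encodes the beta1 subunit, which brings the pump to the cell surface. Its level was 735, 783 and 728 FPKM in cisplatin+PCN libraries, 569, 643 and 588 FPKM in cisplatin libraries, 857, 874 and 812 FPKM in PCN libraries and 782, 854 and 875 FPKM in control libraries. The cisplatin libraries were the 3 lowest of the 12 and overlapped no other group. The 3' end of Atp1b1 overlaps Nme7 on the opposite strand, and Nme7 stood at 1.39 to 3.39 FPKM, so reads it could lend are few beside the 33772 to 61420 reads of Atp1b1.

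Fxyd2 (ENSMUSG00000059412, chromosome 9, 45399669 to 45410278) encodes the gamma subunit of the renal pump. It stood at 331, 289 and 334 FPKM in cisplatin+PCN libraries, 253, 272 and 243 FPKM in cisplatin libraries, 573, 577 and 537 FPKM in PCN libraries and 611, 591 and 589 FPKM in control libraries. All 6 libraries with cisplatin lay below all 6 without it, and no group overlapped another.

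Fxyd4 (ENSMUSG00000004988, chromosome 6, 117933559 to 117937692) encodes CHIF, a pump modulator of collecting duct principal cells. Its level was 17.5, 20.2 and 19.2 FPKM in cisplatin+PCN libraries, 17.3, 20.2 and 16.9 FPKM in cisplatin libraries, 17.0, 17.2 and 19.7 FPKM in PCN libraries and 19.7, 19.6 and 26.8 FPKM in control libraries. The 4 groups overlapped, and the highest value came from 1 control library.

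Fxyd5 (ENSMUSG00000009687, chromosome 7, 31032722 to 31042481) encodes dysadherin, an FXYD protein known for its effect on cell adhesion. It was the lowest of the 6 in control kidney. The values were 2.66, 4.21 and 3.176 FPKM in cisplatin+PCN libraries, 3.70, 4.49 and 4.79 FPKM in cisplatin libraries, 1.43, 1.79 and 1.39 FPKM in PCN libraries and 1.63, 1.67 and 2.01 FPKM in control libraries. The 6 libraries with cisplatin were all above the 6 without it, and the cisplatin+PCN and cisplatin groups overlapped. These values rest on 126 to 547 reads per library, the fewest of the 6 genes.

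Slc9a3 (ENSMUSG00000036123, chromosome 13, 74121457 to 74169442) encodes NHE3, the main sodium/proton exchanger of the proximal tubule brush border. It stood at 36.9, 29.4 and 25.7 FPKM in cisplatin+PCN libraries, 25.3, 24.6 and 20.9 FPKM in cisplatin libraries, 31.5, 31.9 and 29.3 FPKM in PCN libraries and 29.7, 33.9 and 34.5 FPKM in control libraries. The cisplatin libraries were the 3 lowest, and the cisplatin+PCN libraries ran from just above them to the highest value of the 12.

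Slc9a8 (ENSMUSG00000039463, chromosome 2, 167421712 to 167477000) encodes NHE8, an exchanger of the proximal tubule brush border and of internal membranes. Its level was 4.39, 4.01 and 4.47 FPKM in cisplatin+PCN libraries, 4.48, 3.93 and 4.39 FPKM in cisplatin libraries, 28.5, 26.0 and 23.4 FPKM in PCN libraries and 24.2, 21.3 and 22.6 FPKM in control libraries. The 6 libraries with cisplatin formed a narrow band far below the rest, and within that band the pair of groups overlapped completely. Coordinates are those of the deposited table, read as GRCm38, and span the whole gene with its introns.

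**Figure D1:**
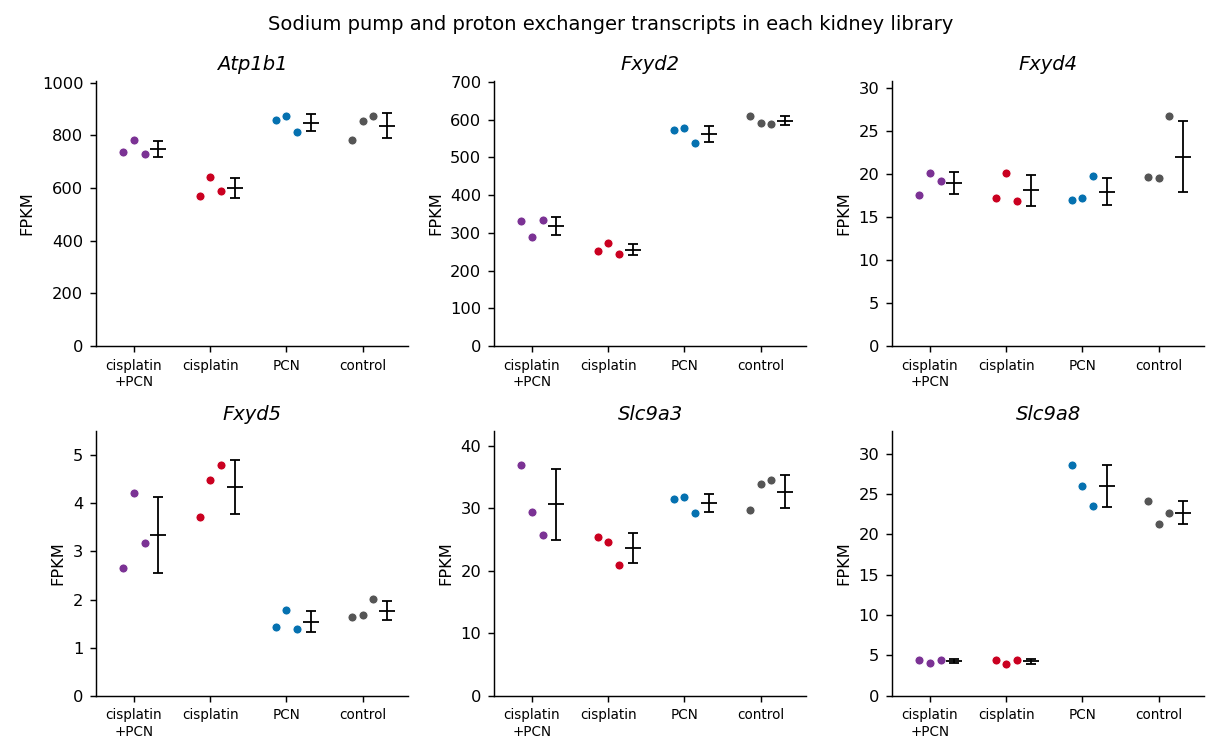
Level of each of the 6 genes in FPKM (vertical axis, from 0) in each kidney library, by treatment group (horizontal axis); points are libraries, and the bar beside them is the group mean with its SD (n = 3). Slc9a8 lies between 3.93 and 4.48 FPKM in all 6 libraries with cisplatin and between 21.3 and 28.5 FPKM in the others, while the 4 groups of Fxyd4 overlap.

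In cisplatin kidneys Atp1b1 had the highest FPKM at 600.4 ± 38.5 (SD, n = 3 here and for all group means), followed by Fxyd2 at 256 ± 14.8, Slc9a3 at 23.6 ± 2.37 and Fxyd4 at 18.1 ± 1.80. Fxyd5 at 4.33 ± 0.560 FPKM and Slc9a8 at 4.27 ± 0.297 FPKM came last and overlapped. The order in cisplatin+PCN kidneys had the same first 4 genes, and Slc9a8 and Fxyd5 overlapped there too. In control kidneys Atp1b1 at 837 ± 48.8, Fxyd2 at 597 ± 11.8 and Slc9a3 at 32.7 ± 2.60 FPKM led, Slc9a8 at 22.7 ± 1.43 and Fxyd4 at 22.0 ± 4.14 FPKM overlapped, and Fxyd5 was lowest at 1.77 ± 0.205 FPKM. In PCN kidneys the order was Atp1b1, Fxyd2, Slc9a3, Slc9a8, Fxyd4 and Fxyd5, with no overlap between neighbours. This order depends on gene length, because the table divides by the union of all exons of a gene. For Fxyd2 that union is 4005 bases, against 684 bases in its longest coding transcript, and for Slc9a8 it is 9095 against 4521 bases. With the length of the longest coding transcript, a choice made after the values were seen, Fxyd2 reached 3496 ± 69.1 and Atp1b1 999.5 ± 58.2 in control kidneys, and Slc9a8 at 45.6 ± 2.88 lay above Slc9a3 at 35.2 ± 2.80. The ratio of FPKM between groups for 1 gene does not depend on this length.

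Cisplatin against control asked what the drug did to these genes. Of the 6, Atp1b1, Fxyd2, Slc9a3 and Slc9a8 fell, Fxyd5 rose and Fxyd4 did not pass. Slc9a8 was 5.32-fold lower in cisplatin libraries by mean FPKM, Fxyd2 2.33-fold lower, Atp1b1 1.39-fold lower and Slc9a3 1.38-fold lower, and Fxyd5 was 2.45-fold higher. Of all 13540 genes tested 63.9% were called in this comparison (32% higher and 31.9% lower), so 5 calls among 6 genes are read against a background in which most genes moved. The groups did not overlap for 5 of the 6, against 67.7% of all genes. Of the genes called, 50.1% were higher here and 57.1% by limma-voom on recovered reads.

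By limma's test on log2(FPKM + 1), with Benjamini-Hochberg adjustment over all 13540 genes, the change of Slc9a8 was -2.17 ± 0.08 (log2, SE; adjusted p = 1.65e-08), and 1.41% of tested genes had a change that low or lower. The change of Fxyd2 was -1.22 ± 0.08 (adjusted p = 3.69e-07), with 5.48% of genes at or below it. Atp1b1 fell by 0.48 ± 0.08 on the log2 scale (adjusted p = 0.000264) and Slc9a3 by 0.45 ± 0.12 (adjusted p = 0.00705). Fxyd5 rose by 0.94 ± 0.13 (adjusted p = 9.13e-05). The change of Fxyd4 was -0.26, with a 95% interval of -0.52 to 0.0081 (adjusted p = 0.0827). Fxyd4 passed without cisplatin replicate 2 (-0.33, adjusted p = 0.0438), and without control replicate 3 its change was -0.12. The calls of the other 5 held in every alternative that gave a value.

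Markers of several nephron segments and of some other cells also differed in this comparison. All 7 proximal tubule markers fell, and their summed level was 226 to 299.6 FPKM in cisplatin libraries, against 2316 to 2375 FPKM in control libraries. Of 5 thick ascending limb markers 4 fell (median -1.31; summed 808 to 1185 FPKM in cisplatin and 1472 to 1839 FPKM in control libraries), and of 4 distal convoluted tubule markers 3 fell (median -2.36; 31.8 to 47.5 FPKM in cisplatin and 164 to 241 FPKM in control libraries). Of 5 macrophage markers 2 rose and 1 fell (summed 68.2 to 87.4 FPKM in cisplatin and 45.8 to 58.6 FPKM in control libraries), and of 5 fibroblast and pericyte markers 3 rose (57.1 to 66.4 FPKM in cisplatin and 26.8 to 49.7 FPKM in control libraries). Both neutrophil markers tested rose, with Mpo at 0 in all 12 libraries and Ly6g at 0 in 8. The 5 markers of collecting duct principal cells, the site of Fxyd4, summed to 326 to 447 FPKM in cisplatin libraries and 368 to 468 FPKM in control libraries, and of the 4 tested 2 fell. Sums overlapped for intercalated cells (76.8 to 82.5 FPKM in cisplatin and 77.4 to 81.9 FPKM in control libraries). They also overlapped for podocytes (53.5 to 60.8 and 47.4 to 63.8 FPKM) and endothelium (38.6 to 54.3 and 42.1 to 48.0 FPKM). Genes of each of these lists were called in both directions. The part of any of these cell types in the changes of the 6 genes was not tested.

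**Figure D2:**
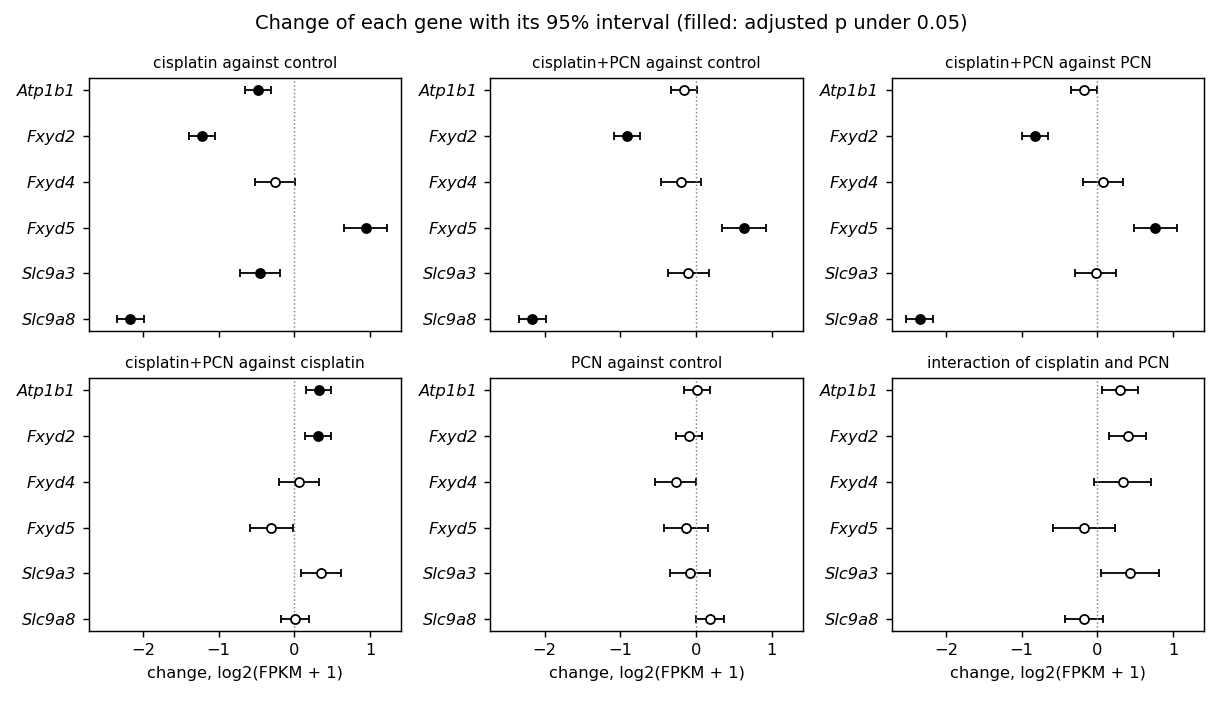
Change of each gene (vertical axis) as a difference in mean log2(FPKM + 1) (horizontal axis) in the 5 pairwise comparisons and in the interaction of cisplatin and PCN; points are limma estimates, bars are 95% intervals, and filled points passed at an adjusted p under 0.05. The intervals of Slc9a8 lie near -2 in each comparison of a cisplatin group with a group without cisplatin, and across 0 in cisplatin+PCN against cisplatin.

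Cisplatin+PCN against cisplatin asked whether PCN altered the kidney that received cisplatin. Atp1b1 and Fxyd2 rose. The cisplatin+PCN libraries of Fxyd2 lay between the cisplatin and the control libraries, and those of Atp1b1 overlapped the control libraries, with a mean below theirs in FPKM as deposited and above it with quantile normalization (a log2 difference of 0.061). Atp1b1 averaged 749 ± 30.0 FPKM in cisplatin+PCN libraries and 600.4 ± 38.5 FPKM in cisplatin libraries, a log2 change of 0.32 ± 0.08 (adjusted p = 0.0235 by limma). Fxyd2 averaged 318 ± 25.1 FPKM in cisplatin+PCN libraries and 256 ± 14.8 FPKM in cisplatin libraries, a change of 0.31 ± 0.08 (adjusted p = 0.0253). These are 2 of 6 genes, beside 15.6% of all genes (7.97% higher and 7.61% lower).

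Slc9a8 averaged 4.29 ± 0.242 FPKM in cisplatin+PCN libraries and 4.27 ± 0.297 FPKM in cisplatin libraries. Its change of 0.0065 had a 95% interval of -0.17 to 0.19 (adjusted p = 0.966). Slc9a3 averaged 30.7 ± 5.69 FPKM in cisplatin+PCN libraries and 23.6 ± 2.37 FPKM in cisplatin libraries, a change of 0.35 with an interval of 0.09 to 0.62 that did not pass (adjusted p = 0.0720). Its groups did not overlap, but replicate 3 of cisplatin+PCN at 25.7 FPKM was within 1 FPKM of cisplatin replicate 1. Slc9a3 passed with quantile normalization (adjusted p = 0.0389), after rescaling without the most abundant genes (0.0424) and by limma-voom on recovered reads (0.0386). Fxyd5 differed by -0.30 (interval -0.59 to -0.017, adjusted p = 0.132) and Fxyd4 by 0.065 (interval -0.20 to 0.33, adjusted p = 0.743). Groups did not overlap for 3 of the 6, against 29.4% of all genes.

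The calls of Atp1b1 and Fxyd2 depended on single libraries and on the fit. They were lost without cisplatin replicate 1 (adjusted p = 0.0768 and 0.0705), without cisplatin replicate 3 (0.0821 and 0.0942), without cisplatin+PCN replicate 3 (0.0610 and 0.0919), with no filter on low values (0.119 and 0.0748) and when the 6 libraries compared were fitted alone (0.156 and 0.161), and that of Fxyd2 also without cisplatin+PCN replicate 1 (0.0524). Fxyd5 passed without cisplatin+PCN replicate 2 (-0.44, adjusted p = 0.0278). The number of genes called was 2110 with all libraries, 774, 3365 and 530 without cisplatin replicates 1, 2 and 3, and 1190 and 601 without cisplatin+PCN replicates 1 and 3. Over the 22 alternatives both estimates stayed above 0, at 0.28 to 0.40 for Atp1b1 and 0.27 to 0.41 for Fxyd2. Many of these settings cannot change the estimates, only the adjusted p. They are the other filters, the replicate block, the fit of only the groups compared and leaving out a PCN or control library. Of the 7 proximal tubule markers 5 rose in this comparison. The summed level of the 7 was 777, 282 and 496 FPKM in the 3 cisplatin+PCN libraries, against 226 to 299.6 FPKM in cisplatin libraries, so the groups overlapped. All 4 collecting duct markers tested rose too (summed 485 to 668 FPKM in cisplatin+PCN and 326 to 447 FPKM in cisplatin libraries). Of the thick ascending limb markers 2 of 5 rose (summed 1353 to 1734 FPKM in cisplatin+PCN and 808 to 1185 FPKM in cisplatin libraries). Of the distal convoluted tubule markers 2 of 4 rose (62.7 to 70.1 FPKM in cisplatin+PCN and 31.8 to 47.5 FPKM in cisplatin libraries). Neither sum overlapped between the groups, but Umod, at 683 to 1501 FPKM over the 12 libraries, made up most of the thick ascending limb sum. Of 5 intercalated cell markers 2 fell and 1 rose (summed 59.1 to 73.2 FPKM in cisplatin+PCN and 76.8 to 82.5 FPKM in cisplatin libraries), again with no overlap. The part of these segments in the changes of Atp1b1 and Fxyd2 was not tested.

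Against the groups without cisplatin, the cisplatin+PCN libraries differed for Fxyd2, Fxyd5 and Slc9a8, and the other 3 genes did not pass. Against PCN libraries, Slc9a8 fell by 2.35 ± 0.08 on the log2 scale (adjusted p = 2.10e-08 by limma), with a mean of 4.29 ± 0.242 FPKM in cisplatin+PCN and 26.0 ± 2.55 FPKM in PCN libraries. Fxyd2 fell by 0.82 ± 0.08 (adjusted p = 1.18e-05) and Fxyd5 rose by 0.77 ± 0.13 (adjusted p = 0.000703). These 3 of 6 genes stand beside 46.9% of all genes (23.5% higher and 23.4% lower), and groups did not overlap for 4 of the 6, against 59.3%. Of the genes called, 50.03% were higher here and 62.0% by limma-voom on recovered reads. Atp1b1 differed by -0.18 (interval -0.35 to -0.0090, adjusted p = 0.0783), and with quantile normalization by 0.052. Slc9a3 differed by -0.023 (interval -0.29 to 0.24, adjusted p = 0.889).

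Against control libraries, a comparison that shares its cisplatin+PCN libraries with the one above, Slc9a8 fell by 2.16 ± 0.08 (adjusted p = 2.46e-08 by limma), Fxyd2 fell by 0.91 ± 0.08 (adjusted p = 6.24e-06) and Fxyd5 rose by 0.64 ± 0.13 (adjusted p = 0.00229). The background was 46.6% of genes called (23% higher and 23.6% lower), with 49.3% of the calls higher here and 60.2% by limma-voom, and 57.5% of genes had groups that did not overlap, as had 3 of the 6. Atp1b1 differed by -0.16 (interval -0.33 to 0.0095, adjusted p = 0.111; 0.061 with quantile normalization), Slc9a3 by -0.10 (interval -0.37 to 0.17, adjusted p = 0.526) and Fxyd4 by -0.19 (interval -0.46 to 0.07, adjusted p = 0.212).

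PCN against control gave no call for any of the 6 genes or of the 13540 tested (0%), with all adjusted p at 1 for the 6 by limma, while 438 genes had an unadjusted p under 0.05. Fxyd4 and Slc9a8 were among those 438. Fxyd4 averaged 18.0 ± 1.54 FPKM in PCN and 22.0 ± 4.14 FPKM in control libraries, a change of -0.27, and Slc9a8 averaged 26.0 ± 2.55 FPKM in PCN and 22.7 ± 1.43 FPKM in control libraries, a change of 0.19. Fxyd2, at 562 ± 21.9 FPKM in PCN and 597 ± 11.8 FPKM in control libraries, was the only member whose groups did not overlap, and 13.3% of all genes had such groups. By limma-voom on recovered reads the count of genes was also 0, and with no filter on low values it was 2.

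The interaction, which asks whether the cisplatin effect differed with PCN, passed for none of the 6, and for 0.111% of all genes (15 genes, 0.0739% higher and 0.0369% lower, so 66.7% of the calls were higher, against 89.7% by limma-voom). Its estimate was 0.40 ± 0.11 for Fxyd2 (adjusted p = 0.121 by limma), 0.43 ± 0.17 for Slc9a3 (adjusted p = 0.212) and 0.30 ± 0.11 for Atp1b1 (adjusted p = 0.182), and these 3 had unadjusted p under 0.05. For Fxyd4 it was 0.33 (interval -0.04 to 0.71, adjusted p = 0.312). For Slc9a8 it was -0.18 (interval -0.43 to 0.08, adjusted p = 0.415), and for Fxyd5 -0.17 (interval -0.58 to 0.23, adjusted p = 0.634). Fxyd2 passed without cisplatin replicate 2 (adjusted p = 0.0443) and without cisplatin+PCN replicate 2 (0.0323), settings that called 1057 and 505 genes, and 9 genes were called without cisplatin+PCN replicate 3.

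Ratios within a library, which do not depend on library scaling, are given as a description, since they were chosen after the values were seen. Slc9a8 over Slc9a3 was 0.119, 0.136 and 0.174 in cisplatin+PCN libraries, 0.177, 0.160 and 0.210 in cisplatin libraries, 0.906, 0.815 and 0.801 in PCN libraries and 0.814, 0.629 and 0.656 in control libraries. The balance between the exchanger transcripts was thus shifted toward Slc9a3 in all 6 libraries with cisplatin, with no overlap with the other 6. Fxyd2 over Atp1b1 averaged 0.426 ± 0.0495 in cisplatin+PCN, 0.426 ± 0.0159 in cisplatin, 0.664 ± 0.00410 in PCN and 0.716 ± 0.0573 in control libraries. Although Atp1b1 and Fxyd2 both stood higher in cisplatin+PCN than in cisplatin libraries, the mean of this ratio was the same to 3 digits. The single values were 0.450, 0.369 and 0.459 in cisplatin+PCN and 0.444, 0.422 and 0.413 in cisplatin libraries. Replicate 2 of cisplatin+PCN thus lay below all cisplatin libraries and the other cisplatin+PCN libraries above them, so the equal means do not show an unchanged ratio. A ratio shows unequal change and not which of its genes moved.

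**Figure D3:**
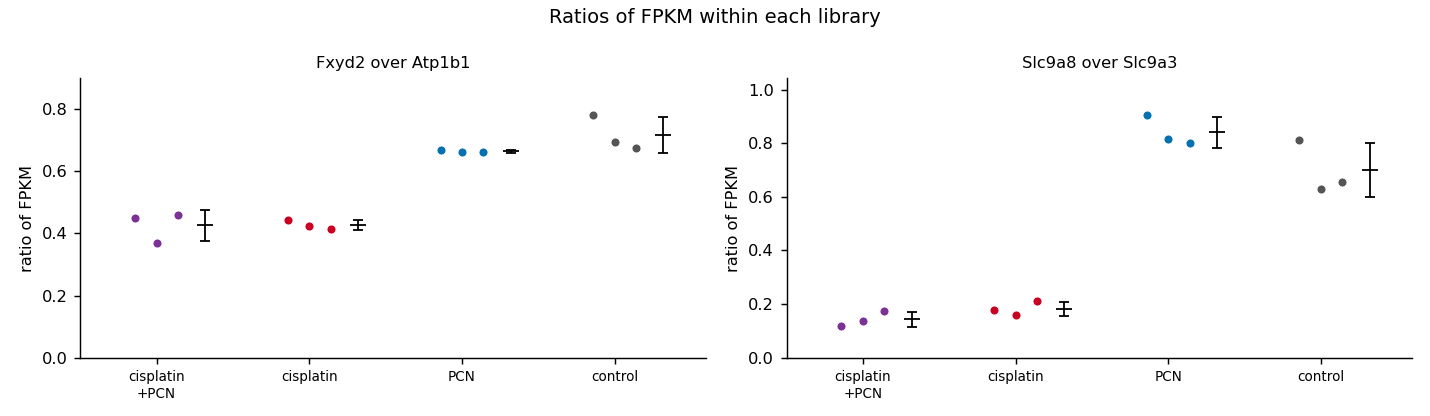
Ratio of FPKM between pairs of genes within each library (vertical axis, from 0, no unit) by treatment group (horizontal axis); points are libraries, and the bar beside them is the group mean with its SD (n = 3). In both panels the 6 libraries with cisplatin lie below the 6 without it, and the cisplatin+PCN and cisplatin groups overlap.

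Among the 7 FXYD genes, Fxyd2 made up most of the transcript in every group. Its share of their summed FPKM was 92.3 ± 1.18% in cisplatin+PCN, 90.6 ± 0.268% in cisplatin, 96.0 ± 0.370% in PCN and 95.5 ± 0.701% in control libraries. Fxyd4 took 5.53 ± 0.721% in cisplatin+PCN, 6.41 ± 0.266% in cisplatin, 3.08 ± 0.378% in PCN and 3.53 ± 0.678% in control libraries. Fxyd5 took 0.985 ± 0.301% in cisplatin+PCN, 1.54 ± 0.230% in cisplatin, 0.262 ± 0.0313% in PCN and 0.283 ± 0.0345% in control libraries. The share of Fxyd4 was thus higher in every library with cisplatin than in any without it, while its own level was not called. With the length of the longest coding transcript, which is short for Fxyd2, its share was 97.5% in cisplatin+PCN, 97.0% in cisplatin, 98.7% in PCN and 98.6% in control libraries.

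The 6 genes belong to larger families. The pump subunits and exchangers below are a part of theirs, so no count or median of them is given and nothing is said of either family as a whole. In cisplatin against control, Atp4a, the alpha subunit of the gastric-type proton pump, fell by 1.81 ± 0.14 on the log2 scale (adjusted p = 1.22e-06 by limma). It stood at 2.44, 1.63 and 1.75 FPKM in cisplatin libraries and 10.1, 8.78 and 8.93 FPKM in control libraries, with no overlap. The beta2 subunit gene Atp1b2 rose (0.27, adjusted p = 0.0468), a call near the threshold that held in 10 of 21 alternatives. Atp1b3, the beta3 subunit, averaged 40.5 ± 0.608 FPKM in cisplatin and 42.4 ± 1.94 FPKM in control libraries and did not pass (adjusted p = 0.417). In cisplatin+PCN against cisplatin, Atp4a rose (0.90, adjusted p = 0.00706) beside Atp1b1.

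Slc9a2, which encodes NHE2, fell by 0.85 ± 0.08 in cisplatin against control (adjusted p = 5.25e-06 by limma). In cisplatin+PCN against cisplatin it rose (0.30, adjusted p = 0.0300), a call that held in 15 of 22 alternatives. Of the 7 FXYD genes 5 were tested. Among these, 1 was higher (Fxyd5) and 1 lower (Fxyd2) in cisplatin against control, where 63.9% of all genes were called, with a median change of -0.19, against 0.0088 over all genes, and Fxyd1, Fxyd4 and Fxyd6 did not pass.

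A list of 12 proteins that bind or regulate the exchangers or the pump holds activators and inhibitors alike, so its count has no direction of function. Of its 11 tested genes 5 rose and 6 fell in cisplatin against control, beside 32% of all genes higher and 31.9% lower (median -0.32, against 0.0088 over all genes). Pdzk1, a scaffold of the brush border, fell by 2.98 ± 0.18 (adjusted p = 3.13e-07 by limma), with 28.4, 47.4 and 24.7 FPKM in cisplatin libraries and 283, 257 and 247 FPKM in control libraries. The scaffolds that hold NHE3 fell as well, Slc9a3r1 (NHERF1) by 0.91 ± 0.08 and Slc9a3r2 (NHERF2) by 1.12 ± 0.12, and Dpp4, a peptidase found in complex with NHE3, fell by 0.59 ± 0.08. Ezr, the ezrin linker to actin, rose by 0.94 ± 0.11, Chp1, a cofactor of SLC9 exchangers, by 1.22 ± 0.16, and the kinase gene Sgk1 by 1.08 ± 0.18. In cisplatin+PCN against cisplatin 5 of the 11 rose, Pdzk1 by 0.998 and Dpp4 by 0.41 among them, and 2 fell (Sik1, -0.68; Ezr, -0.37), beside 7.97% of all genes higher and 7.61% lower. Of these 7 calls those of Pdzk1 and Dpp4 held in 21 and 20 of 22 alternatives, and that of Sik1 in 16. The calls of Slc9a3r1, Slc9a3r2 and Ahcyl1, which also rose, held in only 10, 8 and 6 of 22, and that of Ezr in 6.

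**Figure D4:**
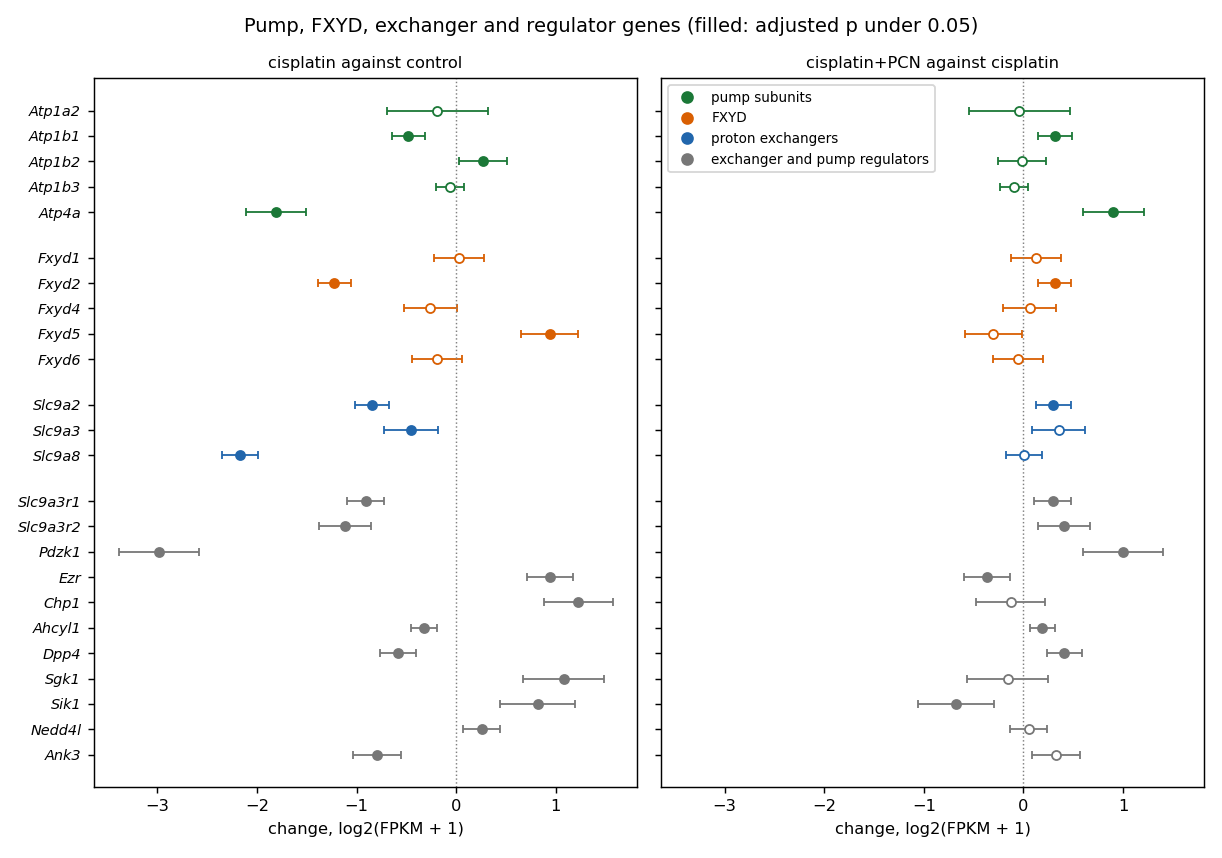
Change of the pump, FXYD, exchanger and regulator genes shown (vertical axis) as a difference in mean log2(FPKM + 1) (horizontal axis) in cisplatin against control and in cisplatin+PCN against cisplatin; points are limma estimates, bars are 95% intervals, colours are the gene lists, and filled points passed at an adjusted p under 0.05. Pdzk1 (-2.98) and Slc9a8 (-2.17) lie farthest left in the first panel, and in the second Slc9a8 lies at 0.0065 while Pdzk1 lies at 0.998.

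For each gene the protein-coding genes with the most similar pattern were found among 7054 genes with a mean of at least 5 FPKM. Likeness was the root mean square difference of log2(FPKM + 1), centred on its mean over the 12 libraries, and it is a description of these libraries. Nearest to Slc9a8 were Lipo3 (0.101), Sap30 (0.142) and Ttr (0.154), and Lipo3 averaged 2.67 FPKM in cisplatin+PCN, 2.73 in cisplatin, 17.5 in PCN and 14.5 in control libraries. Nearest to Fxyd2 were Msrb2 (0.0595), Il11ra1 (0.0776) and AI854703 (0.0781). For Atp1b1 they were Ptpn6 (0.0639), Emc2 (0.0686) and Slc30a6 (0.0688), and for Slc9a3 they were Alad (0.0864), Fam3a (0.0875) and Epb41l5 (0.0943). Nearest to Fxyd5 were Crip2 (0.0935), Capn2 (0.102) and Lrrfip1 (0.103), and Crip2 averaged 32.6 FPKM in cisplatin+PCN, 40.9 in cisplatin, 20.5 in PCN and 22.9 in control libraries. Nearest to Fxyd4 were Rab25 (0.111), Gstm2 (0.112) and Cdc37l1 (0.112).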

How the data were processed

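The unit is FPKM per gene, in a table the authors deposited for 12 kidney libraries. The submitters' processing notes list HISAT2 2.0.5, featureCounts 1.5.0-p3, DESeq2 1.16.1, edgeR 3.18.1 and the build mm8, with no role or setting. In GENCODE M21 (GRCm38), 52403 of the identifiers were found, 95.2% of them with the table's coordinates, the 6 members included. The sources used here do not give strandedness. FPKM times gene length gave whole reads for 100% of nonzero values (within 0.001 reads), and 1 FPKM was 18.7 to 27.2 reads per kilobase. That factor was not proportional to the total of reads in genes. It was 25.5 in cisplatin+PCN replicate 2, with 22980233 reads, and 25.1 in cisplatin+PCN replicate 1, with 26394861. In cisplatin against control, median-of-ratios rescaling shifted the median change of all genes by 0.000165, and limma-voom by 0.091.

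Tests were limma 3.58.1 (R 4.3.3, intensity trend) on log2(FPKM + 1), which understates changes of low genes, for 13540 genes with at least 1 FPKM in at least 3 libraries, in 1 fit of 4 group means. A gene was called at a two-sided Benjamini-Hochberg adjusted p under 0.05 within a comparison. A 3-against-3 exact permutation test cannot reach that threshold and was not used. No library repeated another of its group: chi-square per gene was 4.97 to 78.7 over the 12 replicate pairs. Libraries of different groups were not compared in this way. The fit was also run on simulated counts with the same dispersion in every gene and group. The libraries here differ in spread, so that run cannot show how the calls above behave. Named genes were the 6 members, tested genes of 4 family lists (some genes of the pump and exchanger lists are not reported here), the 3 nearest genes of each member and up to 2 markers per list; members and lists were chosen with earlier results of these data known. Alternatives were other pseudocounts, filters and scalings, only the groups compared, a replicate block, limma-voom on recovered reads and leaving out each library. FPKM were also recomputed with the longest coding transcript. Promoters matched 5 of 6 members.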

Additional observations from a re-analysis of the deposited data

How the results depend on the processing

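In cisplatin against control the calls of Atp1b1, Fxyd2, Fxyd5, Slc9a3 and Slc9a8 held in every alternative (Fxyd5 has no value with a mean of at least 5 FPKM). Of 780 member values over all alternatives, 751 kept direction and call, though many alternatives cannot change the estimate, only the call. With a mean of at least 5 FPKM, where fewer genes are tested, 5197 genes were called in cisplatin against control, 4031 in cisplatin+PCN against PCN, 4000 in cisplatin+PCN against control and 30 in the interaction. With no filter, 2 genes were called in PCN against control and 1008 in cisplatin+PCN against cisplatin, with 0 of the 6 members in the last. With only the groups compared, where fewer libraries set the spread, 1 gene and 0 members were called in cisplatin+PCN against cisplatin. Leaving out 1 library gave 530 to 3365 genes and 0 to 3 members there, and 9 to 1057 genes and 0 to 1 members in the interaction. By limma-voom on recovered reads 8504 genes were called in cisplatin against control, 2265 in cisplatin+PCN against cisplatin and 68 in the interaction.

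Reversals were among uncalled values, and the cause was not tested. In the main fit Atp1b1 was -0.18 in cisplatin+PCN against PCN (interval -0.35 to -0.0090) and -0.16 in cisplatin+PCN against control. With quantile normalization Atp1b1 was 0.052 and 0.061 in these comparisons. In PCN against control it was -0.030 to 0.051 when 1 library was left out. Slc9a3 in cisplatin+PCN against PCN was 0.030 after rescaling that left out the mitochondrially encoded genes and the 50 highest, 0.075 by limma-voom and -0.16 to 0.092 when 1 library was left out, and against control -0.24 to 0.014. Slc9a8 in cisplatin+PCN against cisplatin was -0.041 to 0.045 when 1 library was left out.

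With the longest coding transcript, an alternative chosen after seeing the data, the share of Fxyd2 was 97.5% in cisplatin+PCN, 97.0% in cisplatin, 98.7% in PCN and 98.6% in control libraries, that of Fxyd4 1.63% in cisplatin+PCN, 1.91% in cisplatin, 0.882% in PCN and 1.02% in control libraries, and that of Fxyd5 0.249% in cisplatin+PCN, 0.393% in cisplatin, 0.0642% in PCN and 0.0699% in control libraries.

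Correlations of the deviations of same-numbered libraries ran from -0.28 to 0.37, and 4 of 18 were over 0.1. These were 0.37 and 0.24 for replicates 1 and 2 of cisplatin with cisplatin+PCN, and 0.22 and 0.16 for those of PCN with control. Differently numbered libraries were not compared, so these values cannot decide whether the libraries were paired. A fit with the replicate number as a block called 8455 genes and 5 members in cisplatin against control and 1675 genes and 2 members in cisplatin+PCN against cisplatin, and changed no member's call. Depth limits Fxyd5 most, at 126 to 547 reads a library.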
